A study of Mus musculus with 18 samples.

Results

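The comparison described here sets RNA of the microglia fraction against RNA of the neuron fraction taken from the same pools of mouse frontal cortex. It uses 12 of the 18 libraries of the study, 6 from cells captured with an antibody against CD45 and 6 from cells captured with an antibody against Thy1, and the remaining 6 libraries, from the astrocyte fraction, serve only as a reference level. The libraries were chosen by their labels and paired by pool, that is by treatment and replicate number. All animals were of the line B6;D2-Tg(S100B-EGFP)1Wjt/J, with an EGFP transgene named for S100B. They received 1 intraperitoneal injection a day, from postnatal day 60 to 74, of vehicle, of clozapine at 10 mg/kg or of risperidone at 1 mg/kg, and were killed at postnatal day 75. A pool was made from the frontal cortices of 5 mice, with 2 pools for every treatment, 1 in batch 1 and 1 in batch 2. The labels give adult males in 1 place and both sexes in another. Cells were taken from a pool in sequence: endothelial cells were depleted, CD45+ cells were captured, oligodendrocyte lineage cells were depleted, and Thy1+ and HepaCAM+ cells were then collected.

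Microglia are the resident macrophages of the brain. They arise from yolk sac progenitors, depend on signalling through the receptor Csf1r and on the transcription factor PU.1 (encoded by Spi1), and carry receptors for complement, antibodies, chemokines and nucleotides with which they sense neurons and debris. Cortical neurons are either glutamatergic or GABAergic, and their messenger RNA is rich in transcripts for synaptic vesicle release, postsynaptic scaffolds, ion channels and axonal transport. The fractions are bulk preparations, so fewer cells of a type and less RNA per cell cannot be told apart.

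Assigned counts per library ranged from 5.28 to 9.53 M in the microglia fraction and from 6.52 to 13.4 M in the neuron fraction. Whether a count is 1 read or 1 read pair is uncertain, so these totals may not be numbers of fragments. The microglia library held more counts than its neuron pair in 1 of 6 pools, vehicle 1 (exact paired sign-flip permutation test, two-sided, p = 0.0625). The microglia libraries nevertheless had a count in more genes in each of the 6 pools, 44818 to 48976 genes against 32318 to 42548. Counts over 1464 olfactory and vomeronasal receptor genes, which neither cell type is known for, were summed. The sum was 1501, 2544 and 4368 CPM (lowest, median and highest of 6) in microglia and 141, 296 and 1604 CPM in neurons. For this sum CPM is a count scaled to the total count of its library. Unless stated otherwise, levels of single genes and gene lists are scaled to the total of the tested genes times a TMM factor. That factor ran from 0.734 to 1.29 over the 12 libraries. Both the number of genes with a count and the receptor sum were higher in microglia in 6 of 6 pools (exact paired sign-flip permutation test, two-sided, p = 0.03125, the smallest that 6 pairs can give, and 0.0469 after adjustment over 3 such tests). The neuron libraries of vehicle pool 1 and risperidone pool 1, at 1114 and 1604 CPM, stood apart from the other 4, which had at most 342 CPM. The single gene Vmn1r55, part of this sum, stood at 229 CPM in neuron vehicle 1 and 110 CPM in neuron vehicle 2 on the TMM scale. The factors of these libraries were 0.996 and 0.781. In the other neuron libraries it stood at 2.79 to 28.2 CPM, and in the microglia libraries at 9.37 to 17.0 CPM. Part of the sum in both neuron vehicle libraries thus came from 1 gene. This receptor sum is used below as a measure of diffuse background that moves with the fraction. Its part in the differences of other genes was not tested, and counts are therefore also given for genes that reached at least 10 times its density per kilobase in the fraction where they were higher.

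**Figure D1:**
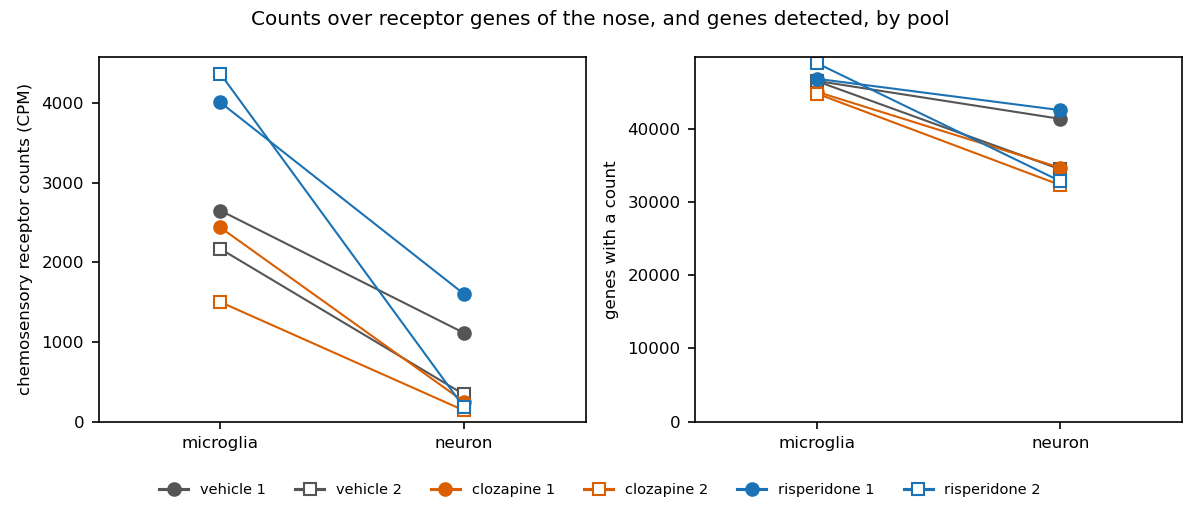
The left panel plots summed counts over olfactory and vomeronasal receptor genes (CPM) and the right panel the number of genes with a count, with 1 line per pool joining its microglia and neuron library. All 6 lines fall from microglia to neuron in both panels, and the neuron libraries of vehicle 1 and risperidone 1 are the highest of the 6 neuron libraries in the left panel.

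The labelled cell types were checked against defining markers. Cx3cr1, the fractalkine receptor of microglia, stood at 340.0, 350.5 and 639.5 CPM (lowest, median and highest of 6 here and below) in the microglia fraction and at 5.41, 16.7 and 80.4 CPM in the neuron fraction. Rbfox3, which encodes the neuronal nuclear protein NeuN, stood at 39.1, 62.5 and 148 CPM in microglia and 183, 303 and 389 CPM in neurons. Neither of these 2 genes overlapped between fractions, whereas the neuronal genes Snap25 and Thy1, given below, did. Each fraction held more of the marker of its label, and neither was free of the other's. The summed level of 20 microglia markers in neuron libraries was lowest, median and highest at 147, 412 and 1783 CPM, with the highest value in the vehicle 2 library. In microglia libraries the same sum was 6243, 8258.5 and 13060 CPM. The summed level of 20 neuronal markers was 1525, 2417 and 6100.3 CPM in microglia libraries and 6757, 12787 and 15802 CPM in neuron libraries. The neuron libraries also held 7887, 13650 and 39100 CPM of 20 oligodendrocyte markers. None of the microglia or neuronal markers was at 0 in all 6 libraries of either fraction.

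**Figure D2:**
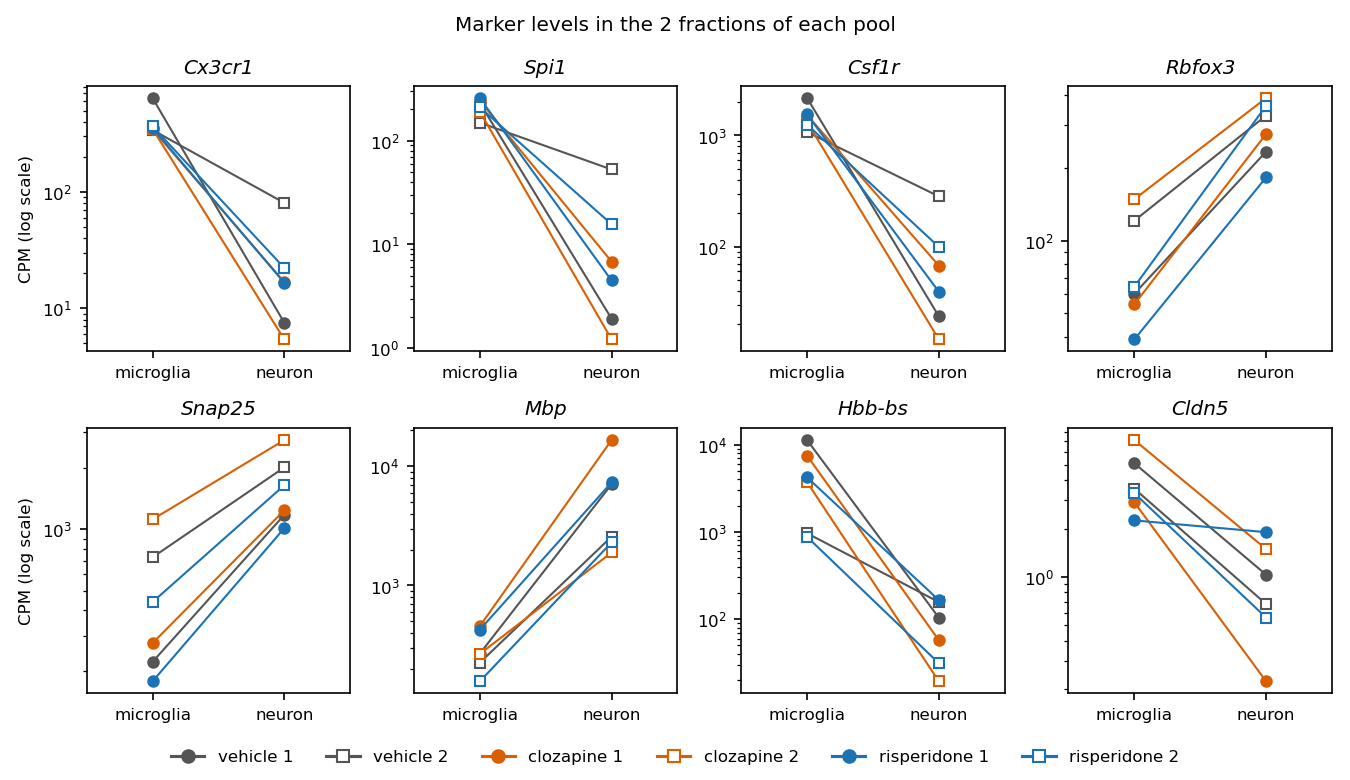
Levels of 8 marker genes (CPM, log axis) in the microglia and neuron library of each pool, with 1 line per pool, colours for treatment, filled symbols for batch 1 and open symbols for batch 2. Cx3cr1, Spi1, Csf1r, the haemoglobin gene Hbb-bs and the endothelial gene Cldn5 are higher in microglia in each pool, whereas Rbfox3, Snap25 and the myelin gene Mbp are higher in neurons in each pool.

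Of 24442 genes tested with the paired edgeR quasi-likelihood test, 13822 (56.6%) differed between the fractions at a Benjamini-Hochberg adjusted p under 0.05. Of these, 7334 genes (30% of those tested) were higher in microglia and 6488 (26.5%) were lower, with a median log2 difference, microglia minus neuron, of 0.12 over all tested genes. Levels in the 6 microglia and 6 neuron libraries did not overlap at all for 6587 genes (26.9%). A stricter description counted genes that were called and whose scaled log2 CPM differed by at least 1 in the same direction in each of the 6 pools, and these are called separating genes below. There were 1910 separating genes (7.81%) higher in microglia and 1065 (4.36%) lower. At the edge of this rule, Scpep1 had a smallest pool difference of 1.00 and was counted, whereas Lpin2, at 0.999, was not.

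The higher and lower genes differed in their level. Separating genes higher in microglia had a median of 11.0 CPM in that fraction and a median log2 difference of 2.99, and 69.2% of them were protein coding. Separating genes lower in microglia had a median of 158 CPM in neurons and a median log2 difference of -1.79, and 91.2% were protein coding. Of 372 olfactory and vomeronasal receptor genes with enough counts to be tested, 327 were called higher in microglia and 0 lower, and 91 of them met the separating rule. These genes could pass the filter on low counts through the microglia libraries alone, so their direction follows in part from that filter. Among the 15084 tested genes at 10 or more times the density of these receptors, a selection made after the values were seen, 2438 were higher and 6487 lower. With the same restriction, 970 separating genes were higher in microglia and 1065 lower. The receptor density had a median of 0.465 CPM per kilobase in microglia and 0.0542 in neurons, and the limit was taken in the fraction where a gene was higher. It therefore removes mainly genes higher in microglia by its construction, and the split between higher and lower genes after it is no result.

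**Figure D3:**
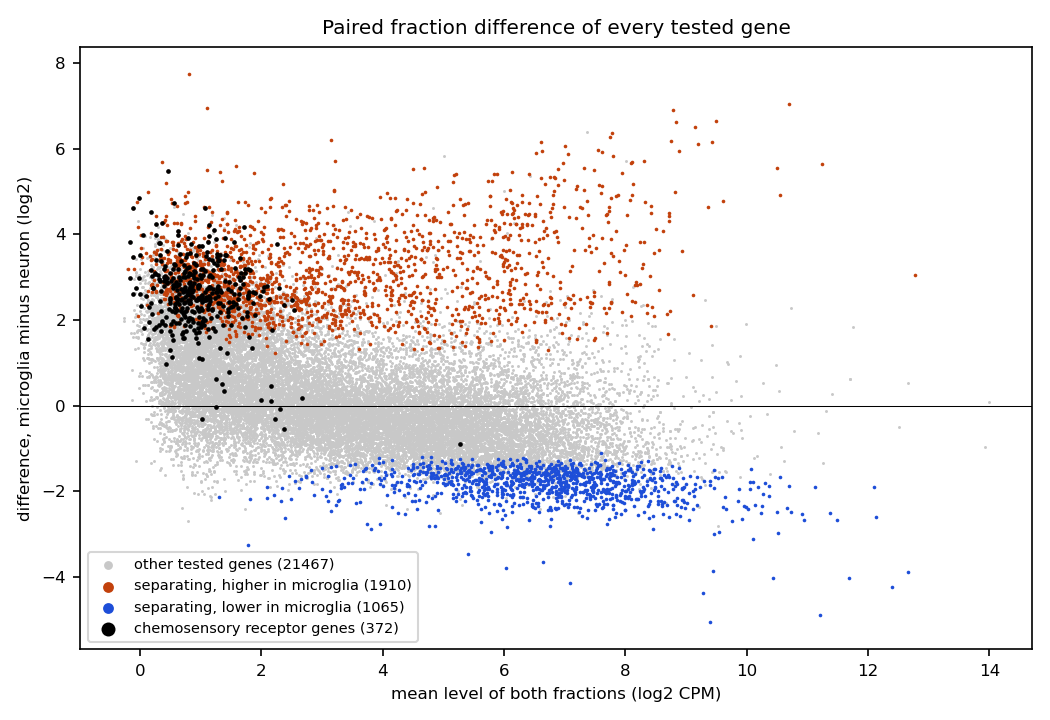
Each point is 1 of the 24442 tested genes, placed by its mean level in both fractions (log2 CPM) and its fitted log2 difference, microglia minus neuron. The 1910 separating genes higher in microglia (red) reach down to low levels, where the 372 chemosensory receptor genes (black) also lie, whereas the 1065 lower ones (blue) lie mostly at higher levels.

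The 15 named genes with the largest smallest-pool difference toward microglia were Fgd2, Tmem173, Rhoh, Irf8, Ccrl2, Il21r, Hbb-bs, Hbb-bt, Ncf1, Cmklr1, Mlxipl, Slamf7, Rab3il1, Bank1 and Hba-a1, and none of them overlapped between fractions. They were chosen by their difference in every pool, so the lack of overlap follows in part from that choice. Of all tested genes, 26.9% did not overlap. Most of these 15 are genes of white blood cells. Irf8, an interferon regulatory factor that partners with PU.1 in myeloid cells (chr8:121463097-121483433, GRCm39), stood at 92.4, 119 and 241 CPM in microglia and 1.40, 5.58 and 15.4 CPM in neurons, a log2 difference of 4.57 ± 0.36 (SE; edgeR adjusted p = 6.1e-06). Ccrl2, an atypical receptor that binds the chemoattractant chemerin, had 87.2, 147 and 309 CPM in microglia and 1.68, 2.76 and 17.6 CPM in neurons (5.41 ± 0.49 on the log2 scale; edgeR adjusted p = 6.6e-06). Cmklr1, a signalling receptor for chemerin, was also among the 15, at 14.7, 19.8 and 34.6 against 1.02, 2.90 and 3.69 CPM. Ccrl2 differed least in vehicle pool 2 and most in vehicle pool 1, and its lowest microglia value was well above its highest neuron value.

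Fgd2, a Cdc42 exchange factor of antigen-presenting cells, had the largest smallest-pool difference of the named genes, at 18.7, 19.9 and 28.0 CPM in microglia against 0.186, 1.89 and 2.48 CPM in neurons. Tmem173 encodes STING, the adaptor of cytosolic DNA sensing, and stood at 32.6, 37.2 and 78.4 against 1.30, 3.67 and 5.31 CPM. Rhoh, a GTPase of blood cells, stood at 20.4, 27.9 and 55.1 against 0.559, 2.08 and 3.98 CPM, and was the only gene of the 15 that did not reach 10 times the receptor-gene density. Ncf1, the p47 subunit of the phagocyte NADPH oxidase, stood at 136, 146 and 322 against 1.30, 7.26 and 23.3 CPM. Their log2 differences were 3.72 ± 0.35, 3.67 ± 0.25, 3.92 ± 0.31 and 4.47 ± 0.43 (SE), with edgeR adjusted p of 7.2e-06, 5.9e-06, 6.1e-06 and 7.8e-06. Il21r, the receptor of interleukin-21, Slamf7, a receptor of the SLAM family, and Bank1, a scaffold known from B cells, differed by 4.01, 4.58 and 3.14 on the log2 scale. Mlxipl, a glucose-responsive transcription factor, and Rab3il1, a Rab exchange factor, differed by 3.42 and 3.05. The next gene in this ranking, Olfml3, is a microglia marker, with a smallest pool difference of 2.49 against 2.50 for the last of the 15, Hba-a1.

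**Figure D4:**
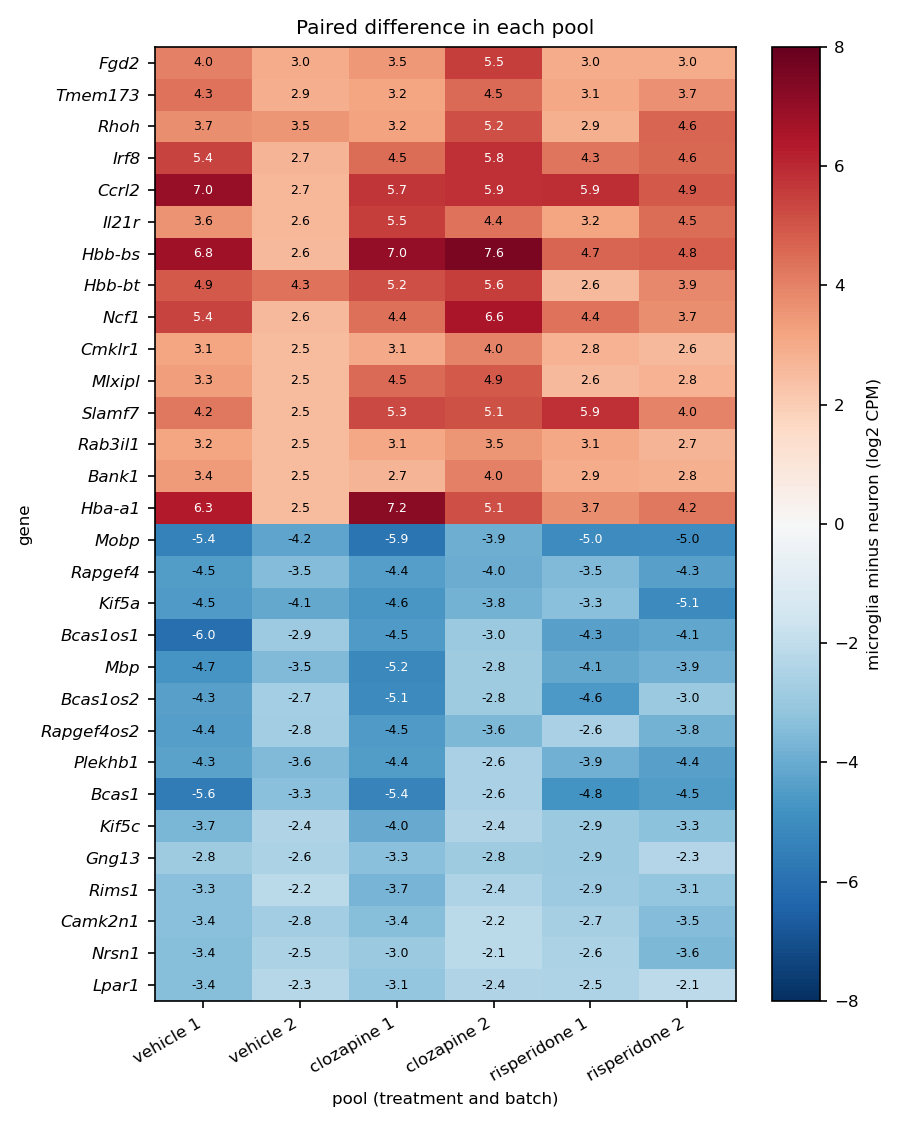
Paired log2 CPM difference, microglia minus neuron, of the 15 named genes highest and the 15 lowest in microglia (rows) in each of the 6 pools (columns); red is higher in microglia and blue is lower, and the number in each cell is the difference. Each row keeps 1 sign in all pools by the rule that chose the genes. For genes such as Ccrl2 and Hbb-bs the vehicle 2 pool has the smallest difference.

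Microglial identity genes and their regulators moved together. All 20 listed microglia markers were called higher, against 30% of all tested genes, and 19 met the separating rule, with a median log2 difference of 4.42. By pool the list's median ranged from 2.04 to 6.02, lowest in vehicle pool 2, whose neuron library held the most microglia marker RNA. The purinergic receptor P2ry12, which guides microglial processes toward nucleotides, stood at 293, 346 and 671 against 4.01, 18.2 and 59.9 CPM, and Tmem119 at 42.5, 50.8 and 107 against 0.652, 2.62 and 8.36 CPM. Csf1r, the receptor on which microglial survival depends, stood at 1073, 1421 and 2170.0 against 14.6, 53.3 and 283 CPM, a log2 difference of 4.78 ± 0.58 (SE; edgeR adjusted p = 2.6e-05). Sall1, a transcription factor that marks microglia among macrophages, was the 1 marker outside the separating rule, at 73.7, 84.4 and 132 against 24.0, 35.2 and 57.1 CPM and a log2 difference of 1.25 ± 0.22 (SE; edgeR adjusted p = 4.0e-04). The fractions did not overlap for Sall1, but its difference was smaller, at 1.66 in batch 1 and 0.85 in batch 2.

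Of 14 listed myeloid transcription factors, 13 were higher and 1 was lower, against 30% and 26.5% of all tested genes. Their median log2 difference was 3.47. Spi1 (chr2:90912735-90946101, GRCm39) stood at 149, 221 and 258 CPM in microglia and 1.21, 5.65 and 52.8 CPM in neurons (5.01 ± 0.66 on the log2 scale, SE; edgeR adjusted p = 4.7e-05). Runx1, a regulator of blood and microglial development, stood at 106, 142 and 165 against 1.58, 7.49 and 27.4 CPM. Ikzf1 differed by 3.90 on the log2 scale, and Maf, Bhlhe41 and Sall3 by 1.73, 1.14 and 0.85. Mef2c was the member called lower. It is a factor of excitatory neurons as well as of microglia, and stood at 179, 300.1 and 472 against 388, 572 and 884 CPM, with overlapping fractions and a log2 difference of -1.02 ± 0.20 (SE; edgeR adjusted p = 0.0011). Its relative Mef2a went the other way, at 199.6, 289 and 347 against 76.3, 104 and 178 CPM (1.35 ± 0.18; edgeR adjusted p = 5.3e-05).

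Promoters of a few of these genes are shown because PU.1 and its ETS relatives, GC-box factors and TATA-binding protein are the textbook regulators of the kinds of gene compared here. Each line holds the 250 bases before a RefSeq start site on GRCm38.p6, a different build from that of the counts, 5′ to 3′ on the strand of the gene, with capitals marking letters that match 1 of 5 motifs on either strand. The motifs were GAGGAAG (PU.1-type ETS), GGGCGGG (GC box), TATAAA (the core of the TATA box), TGANTCA (AP-1) and TGACGTC (CRE), and overlapping matches were each counted. Csf3r, Samsn1 and Bcl2a1b are the first 3 separating genes higher in microglia, ranked by smallest pool difference, that hold the ETS letters. Samsn1, a signalling adaptor of blood cells, and Bcl2a1b, a survival factor of the Bcl-2 family whose near-identical copies make its counts uncertain, were chosen after their values were seen.
Irf8 (chr8:120736108-120736357, plus strand): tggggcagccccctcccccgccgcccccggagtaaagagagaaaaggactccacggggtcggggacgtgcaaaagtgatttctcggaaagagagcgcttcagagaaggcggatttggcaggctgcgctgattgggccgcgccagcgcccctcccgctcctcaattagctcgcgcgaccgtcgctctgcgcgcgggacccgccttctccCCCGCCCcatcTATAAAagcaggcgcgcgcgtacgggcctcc
Csf3r (chr4:126024409-126024658, plus strand): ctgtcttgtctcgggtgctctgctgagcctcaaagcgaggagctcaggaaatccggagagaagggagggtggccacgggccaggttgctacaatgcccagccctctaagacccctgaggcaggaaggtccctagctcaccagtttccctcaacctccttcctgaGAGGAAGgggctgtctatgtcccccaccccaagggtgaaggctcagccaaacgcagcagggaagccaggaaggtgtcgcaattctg
Samsn1 (chr16:75909267-75909516, minus strand): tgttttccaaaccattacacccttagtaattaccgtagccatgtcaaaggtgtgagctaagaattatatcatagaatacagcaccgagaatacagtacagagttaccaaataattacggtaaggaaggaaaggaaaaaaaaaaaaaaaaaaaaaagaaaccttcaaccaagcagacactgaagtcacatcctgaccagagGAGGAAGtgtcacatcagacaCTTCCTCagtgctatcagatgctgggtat
Bcl2a1b (chr9:89199023-89199272, plus strand): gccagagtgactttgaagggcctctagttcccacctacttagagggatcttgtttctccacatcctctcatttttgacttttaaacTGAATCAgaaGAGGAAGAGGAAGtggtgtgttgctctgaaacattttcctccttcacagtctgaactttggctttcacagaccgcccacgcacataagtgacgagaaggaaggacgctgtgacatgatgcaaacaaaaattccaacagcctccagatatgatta
Mobp (chr9:120149492-120149741, plus strand): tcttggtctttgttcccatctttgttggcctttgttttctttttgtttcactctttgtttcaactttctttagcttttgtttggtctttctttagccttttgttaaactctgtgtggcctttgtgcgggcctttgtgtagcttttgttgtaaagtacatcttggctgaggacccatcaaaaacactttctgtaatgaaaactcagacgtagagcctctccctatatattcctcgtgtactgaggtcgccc
Rapgef4 (chr2:71980965-71981214, plus strand): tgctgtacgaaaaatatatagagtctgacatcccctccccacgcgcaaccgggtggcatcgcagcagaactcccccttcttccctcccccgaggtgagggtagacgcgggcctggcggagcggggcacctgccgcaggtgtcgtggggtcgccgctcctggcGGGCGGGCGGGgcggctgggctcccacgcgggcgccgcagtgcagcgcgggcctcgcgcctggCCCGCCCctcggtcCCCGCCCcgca

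The Irf8 window held a GC box 42 bases and TATAAA 31 bases before the start site. The Csf3r window held the ETS letters 86 bases before it, and the Samsn1 window held them on opposite strands at 50 and 29 bases. In the Bcl2a1b window ETS letters at 154 and 148 bases overlapped each other and lay next to an AP-1 match at 164 bases. The 2 genes lower in microglia differed from each other, Rapgef4 with 4 GC boxes, 2 of them overlapping, and Mobp with none of the 5 motifs. The log2 differences of Samsn1 and Bcl2a1b were 4.46 ± 0.42 and 5.52 ± 0.70 (SE; edgeR adjusted p = 7.5e-06 and 3.3e-05).

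Over all 32851 promoters of the table, 10.6% held the ETS letters. Of the 733 separating genes higher in microglia with at least 20 CPM, 535 had a promoter in the table, and 15.5% of their 711 promoters held these letters. Of the 1017 such genes lower in microglia, 729 had one, and 9.58% of their 1044 promoters held the ETS letters. TATAAA was in 12.4% of all promoters, 10.4% of those higher in microglia and 5.46% of those lower, and the AP-1 letters in 6.75%, 8.02% and 3.54%. The GC box was in 23.4% of all promoters and in 38.1% and 40.0% of the promoters of genes higher and lower in microglia. CRE letters were in 2.78%, 2.95% and 4.5%. None of the 22 promoters found for the 15 named genes highest in microglia held the ETS letters. These shares describe letters in a window and were not tested.

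Receptors and signalling molecules of innate immunity were higher in microglia almost throughout their lists, against 30% of all tested genes. All 18 Fc receptor and ITAM signalling genes were called higher, 17 of them separating, with a median log2 difference of 3.85. Tyrobp, the adaptor DAP12 that signals for Trem2, stood at 137, 184 and 255 against 2.05, 9.53 and 28.1 CPM, and Fcgr2b, the inhibitory receptor for immunoglobulin G, at 40.0, 45.2 and 85.1 against 0.652, 2.40 and 7.74 CPM. Their log2 differences were 4.31 ± 0.43 and 4.02 ± 0.43 (SE; edgeR adjusted p = 8.7e-06 and 1.2e-05). Of 14 tested complement genes, 11 were higher and 0 lower (median 4.14). C1qa and C1qc, chains of the C1q molecule that tags synapses and debris, stood at 92.1, 125 and 198 against 1.96, 7.42 and 17.1 CPM and at 124, 165 and 206 against 2.06, 8.96 and 30.1 CPM, without overlap. The receptor of the C3a fragment, C3ar1, had the largest difference of the list, at 1037, 1098 and 1286 against 2.80, 12.8 and 263 CPM (6.12 ± 0.85; edgeR adjusted p = 6.5e-05). The 3 members not called were C4b, Cfp and Serping1, of which C4b was called higher without the vehicle 2 pool (edgeR adjusted p = 0.031).

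Of 24 tested toll-like receptor and NF-kB genes, 22 were higher and 0 lower, against 30% and 26.5% of all tested genes. Their median log2 difference was 3.65, with 3.71 in batch 1 and 3.15 in batch 2. Tlr7, a sensor of single-stranded RNA, stood at 82.3, 109.8 and 134 against 0.373, 1.54 and 15.5 CPM (5.41 ± 0.65; edgeR adjusted p = 2.3e-05), and Ly96, the co-receptor of Tlr4, at 3.32, 5.05 and 9.69 against 0.280, 0.427 and 0.452 CPM. Irak1 and Tlr3 were the members not called, and Tlr3 was called higher with RLE scaling (edgeR adjusted p = 0.041) and without the risperidone 2 pool (0.018). All 24 cytokine receptors were higher, 19 of them separating (median 3.75). The granulocyte factor receptor Csf3r stood at 119.5, 145 and 260.3 against 2.05, 6.66 and 25.3 CPM, with no overlap and a log2 difference of 4.48 ± 0.40 (SE; edgeR adjusted p = 6.6e-06).

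Cytokine and chemokine genes had the highest median of the 41 lists, 5.17 on the log2 scale. Of 19 tested members, 15 were higher and 2 lower, against 30% and 26.5% of all tested genes. By pool the list's median ran from 1.63 in vehicle 2 and 3.45 in risperidone 2 to 6.74 in risperidone 1, and was 6.55 in clozapine 2. In vehicle 2 and risperidone 2 it lay below the median of the microglia markers, 2.04 and 3.74. The chemokine Ccl4 stood at 2121, 3058 and 4577 CPM in microglia and 4.42, 16.4 and 827 CPM in neurons, a log2 difference of 7.06 ± 1.25 (SE; edgeR adjusted p = 4.2e-04), and the cytokine Tnf at 558, 734 and 1418 against 0.932, 5.74 and 159 CPM (6.62 ± 0.98; edgeR adjusted p = 1.1e-04). The difference of Ccl4 was 8.63 in batch 1 and 4.58 in batch 2, and that of Tnf was 7.72 and 5.00. The 2 members lower in microglia are signals known to be sent by neurons to microglia. Cx3cl1, the ligand of Cx3cr1, stood at 75.7, 122 and 249.6 against 207, 349.7 and 617 CPM, with overlapping fractions and a log2 difference of -1.53 ± 0.20 (SE; edgeR adjusted p = 4.2e-05). Il34, the neuronal ligand of Csf1r, stood at 8.90, 11.1 and 13.8 against 13.0, 18.8 and 25.6 CPM, also overlapping (-0.75 ± 0.17; edgeR adjusted p = 0.0022).

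All 15 antigen presentation genes were higher in microglia, 10 of them separating (median 3.73), and 9 reached 10 times the receptor-gene density. Cd86, a co-stimulatory molecule for T cells, stood at 161, 209.6 and 237 against 0.746, 3.23 and 40.3 CPM (5.33 ± 0.68; edgeR adjusted p = 3.5e-05), and the class II gene H2-Aa was low in both fractions, at 3.12, 6.58 and 9.24 against 0.223, 0.363 and 0.590 CPM. Of 25 tested interferon-stimulated genes, 22 were higher and 0 lower, against 30% and 26.5% of all tested genes. Of these 25 genes, 6 met the separating rule and 12 reached 10 times the receptor-gene density. The median difference of the list was 2.08, and that of the 372 tested olfactory and vomeronasal receptor genes was 2.60. The part of the diffuse background in this list was not tested. Oasl1, a member of this list, stood at 26.6, 129.9 and 338 CPM in microglia and 0.280, 2.97 and 32.5 CPM in neurons. Its fractions thus overlapped, with a log2 difference of 5.35 ± 1.10 (SE; edgeR adjusted p = 0.0013). Its difference was 7.00 in batch 1 and 3.48 in batch 2.

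Of 28 lysosome genes, 25 were higher and 1 lower (median 1.93), against 30% and 26.5% of all tested genes. Ctsh, a cathepsin, stood at 54.5, 70.0 and 122 against 1.30, 4.89 and 12.5 CPM, without overlap. Gaa, the acid glucosidase, was the member called lower, at 70.0, 86.7 and 115 against 61.6, 113 and 232 CPM (-0.53 ± 0.21; edgeR adjusted p = 0.041). That call was lost with RLE scaling (edgeR adjusted p = 0.061) and without any 1 pool other than vehicle 1 (0.063 to 0.12). Of 26 integrin and leukocyte cytoskeleton genes, 25 were higher and 0 lower (median 3.54). Of 20 genes known from disease-associated microglia, 17 were higher and 1 lower, against the same shares of all tested genes. Fabp5, a fatty acid binding protein, was the lower one, at 4.52, 7.65 and 11.7 against 11.4, 15.0 and 22.5 CPM (-1.09 ± 0.26; edgeR adjusted p = 0.0033). The lipoprotein gene Apoe was not called (log2 difference -0.58 ± 0.37, SE; edgeR adjusted p = 0.2). It stood at 327, 815 and 1324 against 749, 1116 and 1494 CPM. With all 18 libraries scaled together, a different scale from these levels, its mean in the astrocyte libraries was 3246 CPM. Its mean difference was 0.34 in batch 1 and -1.53 in batch 2, and the edgeR adjusted p was 0.013 with the batch 2 pools alone.

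**Figure D5:**
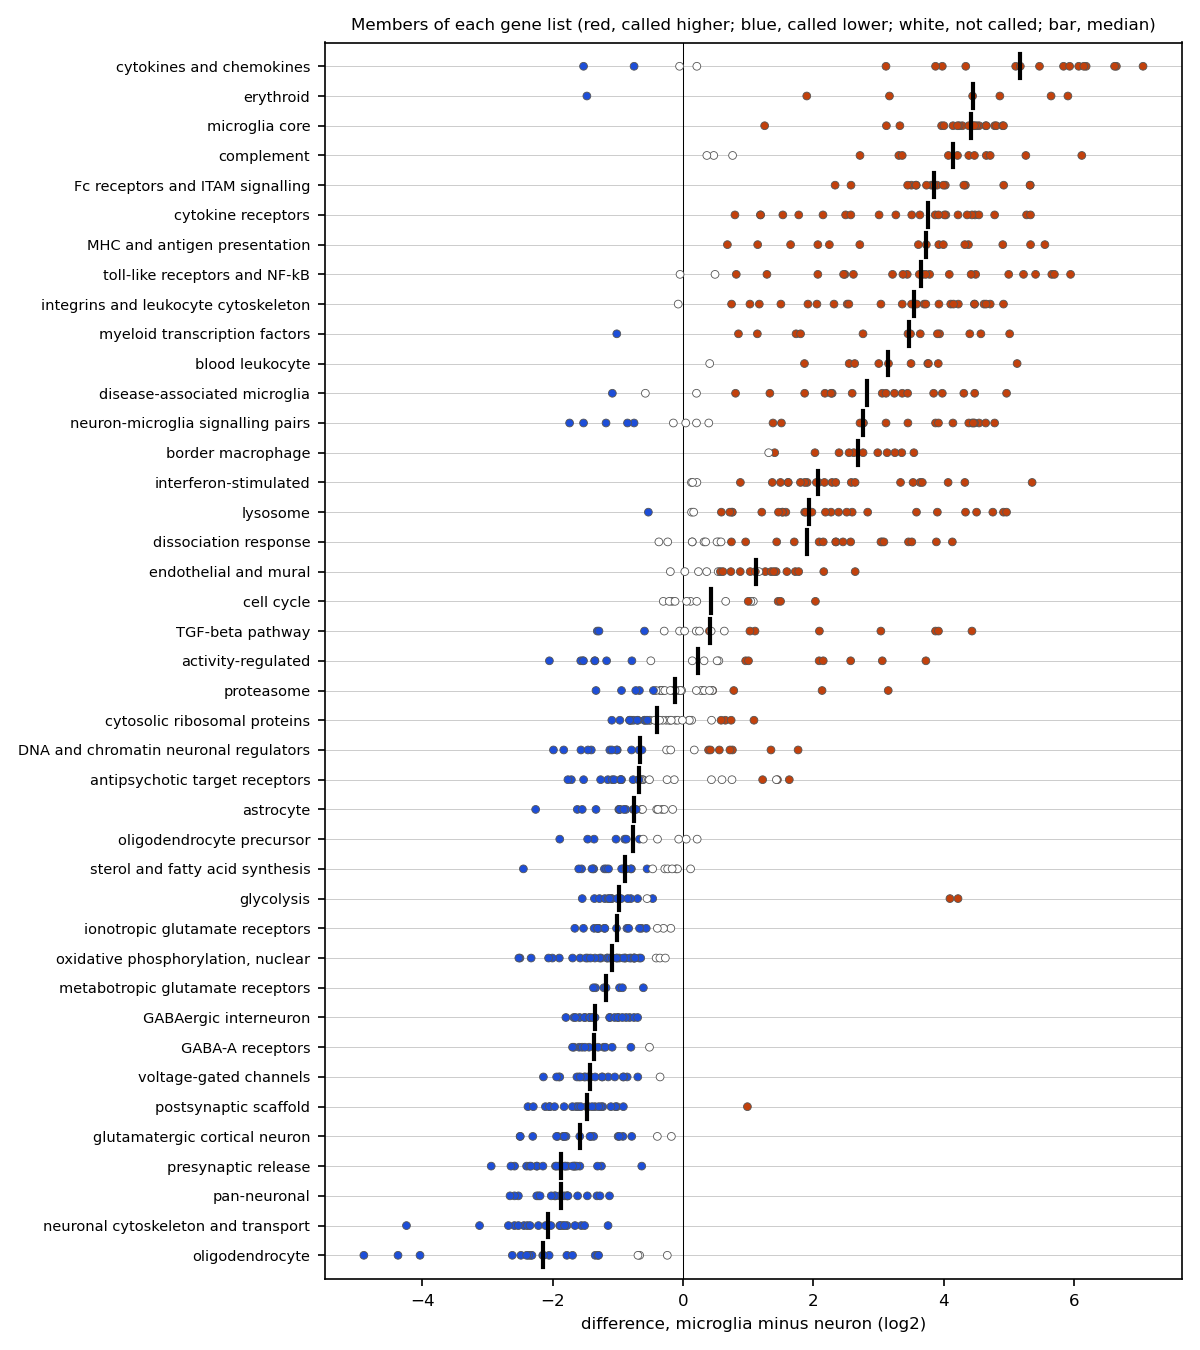
Fitted log2 differences, microglia minus neuron, of the tested members of 41 gene lists, 1 row per list, ordered by median (black bar). Red points were called higher in microglia, blue points lower and white points neither. The lists of cytokines, microglia markers and complement lie at the top and those of neuronal transport and oligodendrocytes at the bottom.

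Levels of listed blood and vessel genes were also mostly higher in the microglia fraction. Of 7 erythroid genes, 6 were higher, against 30% of all tested genes, and these 6 were separating. The haemoglobin gene Hbb-bs (chr7:103475741-103477303, GRCm39) stood at 876, 3959 and 11260.0 CPM in microglia and 19.4, 80.6 and 165 CPM in neurons, a log2 difference of 5.65 ± 0.65 (SE; edgeR adjusted p = 1.7e-05). Hba-a1 stood at 77.2, 355 and 1029 against 3.91, 9.08 and 38.3 CPM, and Alas2, the first enzyme of haem synthesis in red cells, at 26.2, 131 and 241 against 5.03, 11.4 and 15.9 CPM. The haemoglobin genes have near-identical copies (Hbb-bs with Hbb-bt, Hba-a1 with Hba-a2), so the split between copies is uncertain. The list's summed level was 1222, 5137 and 14098 CPM in microglia and 251, 287 and 447 CPM in neurons.

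CD45, the capture antigen, is encoded by Ptprc, which stood at 221, 286 and 311 CPM in the microglia and 2.14, 6.28 and 64.5 CPM in the neuron fraction (5.13 ± 0.64; edgeR adjusted p = 3.1e-05). It is carried by all white blood cells. Of the 20 blood leukocyte markers 11 passed the filter on low counts, and 10 of those were higher, so members that did pass were favoured by a high level in 1 fraction. The T cell gene Cd3e stood at 3.36, 4.67 and 6.56 against 0, 0.223 and 1.18 CPM. Of 12 tested markers of border macrophages, the macrophages of meninges and vessels, 11 were higher, against 30% of all tested genes. Among them were Stab1 at 71.4, 87.9 and 145 against 4.85, 10.8 and 28.1 CPM and F13a1 at 7.93, 19.8 and 107 against 1.12, 3.26 and 3.83 CPM. Summed, the border macrophage markers came to 124, 195 and 583 CPM in microglia and 16.9, 29.9 and 49.4 CPM in neurons. Of 22 tested endothelial and mural markers, 16 were higher and 0 lower, against 30% and 26.5% of all tested genes. Their median was 1.11 and 1 of them was separating, with sums of 380.2, 515 and 567 CPM and 167, 277 and 319.6 CPM. Pecam1, shared by endothelium and leukocytes, stood at 38.8, 46.6 and 54.7 against 2.05, 8.22 and 17.6 CPM, and the tight junction gene Cldn5 at 2.25, 3.44 and 7.13 against 0.224, 0.855 and 1.90 CPM. Of the tested members, 2 of 11 leukocyte, 5 of 12 border macrophage and 10 of 22 endothelial and mural genes reached 10 times the receptor-gene density. Of the 7 erythroid genes, 6 did. The tested olfactory and vomeronasal receptor genes themselves had a median difference of 2.60. The part of the diffuse background in these lists, and of these cell types in the differences above, was not tested.

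Toward neurons, the 15 named genes with the largest smallest-pool difference were Mobp, Rapgef4, Kif5a, Bcas1os1, Mbp, Bcas1os2, Rapgef4os2, Plekhb1, Bcas1, Kif5c, Gng13, Rims1, Camk2n1, Nrsn1 and Lpar1, and none overlapped between fractions. Here too the lack of overlap, against 26.9% of all tested genes, follows in part from the choice by difference in every pool. These 15 genes fall into genes of neuronal transport and signalling and genes of myelin. Kif5a (chr10:127061565-127099217, GRCm39), the neuronal heavy chain of the kinesin-1 motor, stood at 222, 582 and 800.4 CPM in microglia and 5706, 8394 and 20040.0 CPM in neurons, a log2 difference of -4.24 ± 0.31 (SE; edgeR adjusted p = 5.9e-06). Its relative Kif5c stood at 167, 185 and 388 against 1289, 1870.0 and 3257 CPM (-3.12 ± 0.27; edgeR adjusted p = 6.6e-06). Rapgef4 (chr2:71811584-72087818, GRCm39), the cyclic AMP sensor Epac2, stood at 75.2, 149 and 234 against 1369, 2056 and 4872 CPM (-4.03 ± 0.25; edgeR adjusted p = 5.9e-06). The lowest neuron value of each of these 3 genes was several times the highest microglia value.

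Rims1, an active zone scaffold of vesicle release, stood at 115, 152 and 262 CPM in microglia against 864, 1295 and 2091 CPM in neurons. Camk2n1, an inhibitor of the kinase CaMKII, stood at 201, 289 and 719 against 1291, 2640.0 and 3529 CPM. Nrsn1, a vesicle protein of neurites, and Gng13, a G protein gamma subunit, differed by -2.88 ± 0.24 and -2.89 ± 0.20 on the log2 scale (SE; edgeR adjusted p = 6.1e-06 and 5.9e-06). Rapgef4os2, Bcas1os1 and Bcas1os2 lie antisense within Rapgef4 and Bcas1. The counts carry no strand and reads over several genes were counted for each, so these antisense genes cannot be told apart from their hosts.

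Myelin genes made up much of the rest of this set. Mobp (chr9:119978773-120010550, GRCm39), a structural protein of myelin, stood at 62.3, 112 and 214 CPM in microglia and 1377, 3336 and 12500.0 CPM in neurons, a log2 difference of -4.90 ± 0.32 (SE; edgeR adjusted p = 5.9e-06). Mbp, myelin basic protein, stood at 157, 267 and 455 against 1890.0, 4811 and 16580.0 CPM (-4.04 ± 0.34; edgeR adjusted p = 6.1e-06). Bcas1, a marker of oligodendrocytes that are forming myelin, stood at 24.7, 50.8 and 63.6 against 341, 976 and 2619 CPM. In the astrocyte libraries the mean level, with all 18 libraries scaled together, was 5782 CPM for Mobp, 9792 CPM for Mbp and 3324 CPM for Bcas1, above the neuron means of 4816, 6571 and 1246 CPM on the same scale. Plekhb1 and Lpar1, which oligodendrocytes express, were likewise at 1965 and 161 CPM in astrocyte against 1377 and 114 CPM in neuron libraries. For Kif5a, Kif5c, Rapgef4 and Rims1 the order was the opposite, with astrocyte means of 3821, 799.5, 1046 and 521 CPM and neuron means of 10640.0, 2034, 2721 and 1371 CPM. These differences from the astrocyte fraction were not tested.

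Of 20 oligodendrocyte markers, 17 were lower in microglia and 0 higher, against 26.5% and 30% of all tested genes. Their median log2 difference, -2.15, was the lowest of the 41 lists. Their summed level was 843, 1523 and 3479 CPM in microglia and 7887, 13650.0 and 39100.0 CPM in neurons. Of 20 astrocyte markers, 13 were lower and 0 higher (median -0.76, -0.10 in batch 1 and -1.50 in batch 2), with sums of 2782, 4487 and 7263 CPM and 6124, 8339 and 14111 CPM. Without the vehicle 2 pool, and likewise without the risperidone 2 pool, 7 were lower. S100b stood at 11.8, 29.8 and 51.5 against 94.0, 129.5 and 197 CPM (-2.26 ± 0.30; edgeR adjusted p = 4.6e-05), and the connexin gene Gja1 was not called, at 95.4, 179 and 364 against 172, 235 and 324 CPM (log2 difference -0.33 ± 0.29, SE; edgeR adjusted p = 0.35). Of 12 oligodendrocyte precursor markers, 7 were lower and 0 higher, against the same 26.5% and 30%, and 0 were separating. Olig1, called lower, stood at 11.1, 18.0 and 37.7 against 40.9, 79.3 and 94.9 CPM. None of these marker genes was at 0 in all libraries of a fraction. By list median, RNA of oligodendrocyte markers thus moved with the neuron fraction in each pool, and RNA of astrocyte markers did so mainly in batch 2. The part of both in the neuronal differences below was not tested.

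By list medians, neuronal genes were lower in microglia by smaller factors than immune genes were higher. All 20 pan-neuronal markers were called lower, against 26.5% of all tested genes, and 17 were separating, with a median log2 difference of -1.88 and -2.12 in batch 1 and -1.62 in batch 2. Gap43, a growth cone protein, stood at 18.9, 26.1 and 65.4 CPM in microglia and 139.7, 182 and 246 CPM in neurons (-2.66 ± 0.21; edgeR adjusted p = 5.9e-06). Map2, the dendritic microtubule protein, stood at 346, 454 and 1272 against 1292, 3568 and 4336 CPM (-2.53 ± 0.26; edgeR adjusted p = 1.0e-05). Neither overlapped. Snap25, a SNARE of synaptic vesicles, stood at 179, 357 and 1120.0 against 1014, 1445 and 2752 CPM and overlapped, because 1 microglia library exceeded the lowest neuron library, yet the difference kept its sign in each pool. Thy1, which encodes the antigen used to capture neurons, also overlapped, at 33.8, 65.3 and 127 against 108, 186 and 346 CPM (-1.62 ± 0.20; edgeR adjusted p = 2.5e-05).

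All 20 neuronal cytoskeleton and transport genes were lower, 18 of them separating (median -2.07), and so were all 26 presynaptic release genes, 22 of them separating (median -1.87). Cplx1, complexin 1, which clamps vesicle fusion, stood at 63.8, 100.1 and 349 against 345, 884 and 1203 CPM (-2.59 ± 0.23; edgeR adjusted p = 6.6e-06). Of 23 postsynaptic scaffold genes, 22 were lower and 1 higher (median -1.48), against 26.5% and 30% of all tested genes. Shank1 stood at 219, 287 and 651 against 895, 1733 and 2338 CPM and Dlgap3 at 36.8, 63.0 and 115 against 151, 349.5 and 509 CPM, both without overlap. Homer3 was the member higher in microglia, at 10.3, 14.7 and 21.8 against 5.41, 7.21 and 11.4 CPM, with overlapping fractions (0.99 ± 0.20; edgeR adjusted p = 0.0011).

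Markers of both main neuron classes were mostly called lower in microglia, against 26.5% of all tested genes. Of 19 tested glutamatergic genes, 17 were lower and 0 higher (median -1.59), and all 22 GABAergic genes were lower (median -1.36). Camk2a, the main kinase of excitatory synapses, stood at 476, 692 and 1672 against 1795, 5054 and 6067 CPM, and Nrgn, neurogranin, at 174, 284 and 841 against 1011, 2053 and 3194 CPM. The log2 differences of these 2 genes were -2.50 ± 0.27 and -2.50 ± 0.22 (SE; edgeR adjusted p = 1.3e-05 and 6.6e-06). Gad2, which makes GABA, stood at 23.2, 39.3 and 100.3 against 68.7, 149 and 230.1 CPM with a difference of -1.59 ± 0.17 (SE; edgeR adjusted p = 1.3e-05), and Pvalb, of fast-spiking interneurons, at 2.73, 4.49 and 7.54 against 9.10, 15.0 and 26.1 CPM. Separating genes numbered 11 of the glutamatergic and 9 of the GABAergic list. Cux1, known from upper cortical layers, was not called, at 149.6, 155 and 192 against 132, 236 and 272 CPM (log2 difference -0.40 ± 0.18, SE; edgeR adjusted p = 0.08, and 0.041 without the risperidone 1 pool).

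Most receptors and channels of neuronal signalling were called lower, against 26.5% of all tested genes. Of 17 ionotropic glutamate receptor genes, 14 were lower and 0 higher (median -1.02), and none was separating. Grin2b, an NMDA receptor subunit, stood at 252, 408 and 699.7 against 970.2, 1252 and 2268 CPM (-1.66 ± 0.22; edgeR adjusted p = 5.2e-05). All 7 metabotropic glutamate receptors were lower (median -1.18), 1 of them separating. Of 12 GABA-A receptor subunits, 11 were lower (median -1.37). Of 22 voltage-gated channel genes, 21 were lower and 7 were separating, against 4.36% of all tested genes separating in that direction (median -1.43). No member of these 4 lists was called higher.

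Of 27 tested receptors that antipsychotic drugs bind, 15 were lower in microglia, 3 were higher and none was separating, against 26.5% of all tested genes lower, 30% higher and 56.6% called in either direction (median -0.68). Chrm1, a muscarinic receptor, stood at 24.4, 42.9 and 99.9 against 108, 156 and 284 CPM (-1.72 ± 0.22; edgeR adjusted p = 4.2e-05), and Hrh3, a histamine receptor, at 6.43, 15.0 and 28.0 against 31.8, 48.8 and 68.6 CPM. The serotonin receptor Htr2a stood at 6.27, 14.1 and 22.4 against 15.2, 26.0 and 36.0 CPM (-0.96 ± 0.17; edgeR adjusted p = 3.6e-04), and the dopamine receptor Drd2 at 3.28, 7.48 and 9.68 against 6.25, 9.77 and 22.3 CPM (-0.77 ± 0.29; edgeR adjusted p = 0.037), both with overlapping fractions. The call for Drd2 was lost with RLE scaling (edgeR adjusted p = 0.053) and without the vehicle 1, vehicle 2, clozapine 1 or risperidone 2 pool (0.079 to 0.13). The 3 members higher in microglia, Htr2b, Chrm5 and Drd3, had medians of at most 5.55 CPM there, at the levels where the olfactory receptor genes also lay. The call for Drd3 was lost without the vehicle 1, vehicle 2 or risperidone 2 pool (edgeR adjusted p of 0.058 to 0.067). Htr2b stood at 4.47, 5.55 and 7.96 against 1.56, 2.69 and 3.67 CPM (1.22 ± 0.31; edgeR adjusted p = 0.0054).

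Ligands and receptors of known exchange between neurons and microglia were found on both sides. Of 26 listed members, 17 were higher in microglia and 5 lower, against 30% and 26.5% of all tested genes. The lower ones were Cx3cl1 and Il34, above, Cd200 and Cd47, inhibitory surface signals of neurons (-1.18 and -0.85 on the log2 scale), and the adenosine receptor Adora1, at 46.5, 50.2 and 84.2 against 127, 186 and 269.5 CPM (-1.74 ± 0.19; edgeR adjusted p = 1.4e-05). Their partners Cx3cr1, Csf1r and Cd200r1 were higher, the last by 1.51 ± 0.51 (SE; edgeR adjusted p = 0.023), whereas Sirpa, the partner of Cd47, was not called. The call for Cd200r1 was lost without any 1 of the clozapine or risperidone pools (edgeR adjusted p of 0.053 to 0.077). Another adenosine receptor, Adora3, stood at 11.6, 15.4 and 21.1 against 0.669, 1.34 and 2.85 CPM, higher in microglia (3.45 ± 0.30; edgeR adjusted p = 6.4e-06). Of 18 TGF-beta genes, 8 were higher and 3 lower, against 30% and 26.5% of all tested genes. Tgfbr1 and Tgfbr2, the receptor chains, stood at 684, 774 and 939 against 19.0, 26.8 and 186 CPM and 106, 119.7 and 170.1 against 5.22, 6.64 and 24.6 CPM. Tgfb1 was higher (3.87 ± 0.39; edgeR adjusted p = 9.2e-06), whereas Tgfb3 (-1.32 ± 0.23; edgeR adjusted p = 3.6e-04) and Itgb8, an integrin chain that activates latent TGF-beta (-1.29 ± 0.19; edgeR adjusted p = 1.1e-04), were lower.

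Most listed genes of energy metabolism were lower in microglia. Of 35 nuclear genes of oxidative phosphorylation, 32 were lower in microglia and 0 higher (median -1.09), against 26.5% and 30% of all tested genes. Ndufb9, a complex I subunit, stood at 7.03, 15.9 and 29.2 against 47.5, 85.4 and 137 CPM. Of 18 glycolytic genes, 15 were lower and 2 higher, against the same shares of all tested genes. The hexokinases, which open glycolysis, were divided: Hk1 was lower, at 110.4, 117 and 188 against 225, 345 and 559.6 CPM (-1.36 ± 0.21; edgeR adjusted p = 1.3e-04), and Hk2 and Hk3 were higher, at 77.6, 100.1 and 162 against 3.02, 5.10 and 17.9 CPM and 90.4, 103 and 145 against 2.14, 4.82 and 23.2 CPM. Per length, as CPM per kilobase of exon, the mean level in microglia and in neurons was 15.7 and 41.9 for Hk1, 18.0 and 1.21 for Hk2 and 29.3 and 2.11 for Hk3. Hk2 and Hk3 were both separating, with log2 differences of 4.09 ± 0.34 and 4.22 ± 0.40 (SE; edgeR adjusted p = 6.1e-06 and 7.6e-06).

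Of 23 sterol and fatty acid synthesis genes, 16 were lower and 0 higher, against 26.5% and 30% of all tested genes. They were led by Scd1, a desaturase, at 24.4, 54.2 and 72.3 against 141, 268 and 488 CPM (-2.45 ± 0.25; edgeR adjusted p = 9.6e-06). With all 18 libraries scaled together, a different scale from these levels, its mean in the astrocyte libraries was 503 CPM. Of 30 proteasome genes, 4 were higher and 5 lower, a share below that of all tested genes, and with RLE scaling 7 were higher. The immunoproteasome subunit Psmb8 stood at 14.4, 19.0 and 32.2 against 1.02, 2.57 and 2.95 CPM (3.15 ± 0.24; edgeR adjusted p = 5.9e-06), whereas Psmb5, the constitutive subunit it replaces, was lower (-0.95 ± 0.22; edgeR adjusted p = 0.0031). Of 36 cytosolic ribosomal protein genes, 4 were higher and 13 lower, against the same 30% and 26.5%, none of them separating, with a median of -0.40. Without the risperidone 1 pool 2 of them were higher and 20 lower, and 8 proteasome genes were lower. These genes have many processed copies in the genome, so their counts are uncertain.

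Of 20 activity-regulated genes, 7 were higher in microglia and 8 lower, near the 30% and 26.5% of all tested genes. Arc, a synaptic effector of neuronal activity, stood at 50.4, 64.9 and 121 against 179.6, 317 and 419 CPM (-2.05 ± 0.21; edgeR adjusted p = 8.5e-06), and the nuclear receptor gene Nr4a2 at 11.7, 19.7 and 28.7 against 40.6, 61.6 and 74.0 CPM. Gadd45b, a stress-response gene, stood at 241, 302 and 429 against 12.8, 18.4 and 64.4 CPM (3.73 ± 0.35; edgeR adjusted p = 7.3e-06), and Dusp1, a phosphatase of MAP kinases, at 344, 444 and 562 against 33.6, 46.5 and 124 CPM. Fos was not called, at 178, 208 and 609 against 109, 242 and 465 CPM (log2 difference 0.14 ± 0.28, SE; edgeR adjusted p = 0.69). Of 26 genes known to respond to tissue dissociation, some of them in the previous list, 17 were higher and 0 lower (median 1.90). Zfp36, which destabilises cytokine messages, stood at 547, 608 and 995 against 16.6, 29.6 and 151 CPM and Socs3, an inhibitor of cytokine signalling, at 103, 140.4 and 183 against 7.60, 13.8 and 37.7 CPM. The summed level of the dissociation list was 7382, 9886 and 17120.0 CPM in microglia and 3672, 5383 and 7265 CPM in neurons, and its part in the cytokine differences was not tested.

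Regulators that keep or repress neuronal programmes also differed. Of 22 chromatin and neuronal regulators, 12 were lower in microglia and 7 higher, against 26.5% and 30% of all tested genes. Rest, which represses neuronal genes outside neurons, stood at 47.6, 52.5 and 59.2 against 9.32, 16.0 and 27.2 CPM (1.76 ± 0.21; edgeR adjusted p = 2.2e-05). Myt1l, which represses other programmes in neurons, stood at 79.9, 102 and 196 against 341, 471 and 661 CPM (-1.99 ± 0.21; edgeR adjusted p = 1.1e-05), and the neuronal factor Neurod2 at 5.95, 16.5 and 23.9 against 30.4, 55.4 and 79.7 CPM. None of these 3 overlapped. Of 14 tested cell cycle genes, 4 were higher and 0 lower, the higher ones a share near the 30% of all tested genes. Pcna, the replication clamp, stood at 51.1, 83.0 and 98.9 against 18.6, 29.2 and 37.4 CPM (1.46 ± 0.23; edgeR adjusted p = 1.7e-04).

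The fraction difference was then compared between treatments and between batches. For clozapine against vehicle and for risperidone against vehicle, 1 of 24442 genes each (0.00409%) had a fraction difference that differed by edgeR's quasi-likelihood test at an adjusted p under 0.05, and 642 and 334 genes had an unadjusted p under 0.05. It was the same unnamed gene, ENSMUSG00002076052.1, both times. It stood at 6937 CPM in neuron vehicle 2 and at 22.1 CPM in neuron vehicle 1, and at no more than 4.66 CPM in the other libraries, so that the result rested on 1 library. Without the vehicle 2 pool no gene was called for either drug, and without the vehicle 1 pool, which leaves vehicle 2 as the lone vehicle pool, 85 were called for clozapine. The 2 genes given next were chosen for a small p in the clozapine comparison. Their split by treatment follows from that choice and is a description. Among named genes not called, Slc11a1, a metal transporter of phagosomes, had paired differences of 6.34 and 8.05 with clozapine and 3.83 and 2.14 with vehicle (edgeR adjusted p = 1). Lgals3, galectin-3, had 6.42 and 7.61 with clozapine and 4.28 and 1.79 with vehicle, and in neurons it stood at 0.223 and 0 CPM with clozapine against 0.590 and 13.1 CPM with vehicle. The neuron library of vehicle 2 also held the most microglia marker RNA, and its part in these 2 genes was not tested. The test had 2 pools per treatment and 3 residual degrees of freedom.

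No gene had a fraction difference that differed between batches by edgeR at an adjusted p under 0.05 (0 of 24442, smallest adjusted p = 0.114), whereas 3574 had an unadjusted p under 0.05 and DESeq2 called 291. Without the clozapine 2 pool edgeR called 543 and without the vehicle 2 pool 2. The 3 genes given next were chosen for a small p in this test, so their split by batch follows from the choice and is a description. Spp1, osteopontin, had paired differences of 3.79, 5.97 and 7.24 in batch 1 and 0.0013, 0.900 and 1.92 in batch 2 (edgeR adjusted p = 0.127). Ptgs2, a prostaglandin synthase, had 5.84, 3.97 and 4.14 against 1.86, 1.78 and 2.46. Flt1, an endothelial receptor, had differences near 0 in batch 1, from -0.16 to -0.05, and of 1.61, 2.28 and 2.77 in batch 2, where its neuron levels were 7.03 to 16.3 CPM against 42.3 to 50.6 CPM in batch 1. Over all 6 pools Flt1 was called higher in microglia (log2 difference 1.03, edgeR adjusted p = 0.038), and that call was lost without any 1 batch 2 pool (0.084 to 0.14).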

How the data were processed

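The deposited tables, 1 a library, hold raw counts for each gene. Per the file headers, the authors made them with featureCounts v2.0.8, which counted paired-end reads over exons by gene identifier on GRCm39, with reads over several genes counted for each and no strand setting. The recorded command marks the reads as paired but does not hold the option that counts pairs, so a count may be 1 read and not 1 fragment. Counts of overlapping, antisense or near-identical genes are therefore uncertain. Which aligner was used is not stated in those headers or in the labels. Mitochondrial genes had 0 counts in all libraries and could not be examined. Names came from GENCODE vM21 by identifier, which matched 52029 of 56953 identifiers and 96.2% of counts. Promoters came from RefSeq by symbol.

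The main test was edgeR 4.0.16 in R 4.3.3 on 12 libraries, with filterByExpr by fraction, TMM scaling, quasi-likelihood F tests and Benjamini-Hochberg adjustment. The model held the pool as a block, because the labels state that all fractions were taken from each pool of 5 animals. Deviations of paired libraries from their group correlated at 0.11 with vehicle, 0.21 with clozapine and 0.00094 with risperidone. Residual degrees of freedom were 5 and the common biological coefficient of variation was 0.342. SEs were taken as the size of the log2 difference over the root of its F statistic. Per-pool differences used TMM-scaled log2 CPM with a prior count of 2. The astrocyte libraries entered only levels scaled over all 18 libraries and 1 alternative. Scripts were tested on simulated data.

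The comparison and its 41 gene lists were chosen with earlier results of these data known. Named genes were the 15 per direction with the largest smallest-pool difference, among separating genes of at least 20 CPM in the higher fraction, with unnamed, predicted and pseudogenes skipped. From each list came up to 2 called genes of largest smallest-pool difference in its main direction, and up to 2 of the opposite direction or not called. For each interaction the 5 of smallest p per direction could be named. Marker genes were given freely. C3ar1, Ccl4, Tnf, Oasl1, Apoe, Gja1, Tgfbr1, Adora3, Cd200, Cd47, Cd200r1, Sirpa, Htr2a, Drd2, Drd3, Ikzf1, Maf, Bhlhe41, Sall3, Samsn1, Bcl2a1b and the genes of the closing section were chosen after their values were seen. Some genes that these rules name are not reported here. Alternatives were no block, DESeq2 1.42.0, RLE scaling, no low-count filter, other thresholds, all 18 libraries, each pool left out, and single batches or treatments. The restriction by receptor-gene density and the fit without 2 pools were added after seeing the data.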

Additional observations from a re-analysis of the deposited data

Results flagged for a closer look

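In the vehicle 2 pool the median paired log2 difference of 3 immune lists lay apart from the other 5 pools on the low side. It was 1.61 for toll-like receptors and NF-kB, 1.71 for cytokine receptors and 1.67 for antigen presentation. The neuron library of that pool held the most microglia marker RNA, 1783 CPM over 20 markers against a median of 412, and its part was not tested. The median of the cell cycle genes lay apart on the high side in risperidone 2, at 1.07. In all, 77 sets of 6 values were checked and 4 had an outlying value, and chance gives about 1 in 20.

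The median of the activity-regulated genes was 0.87 in batch 1 pools and -0.39 in batch 2 pools, with each pool of a batch on the same side. This difference between batches was not tested. The gene ENSMUSG00002076052.1 was higher in neurons in the vehicle pools, with microglia-minus-neuron differences of -5.92 and -13.34 on the log2 scale. The differences were -0.22 and -1.31 with clozapine and 1.36 and 1.52 with risperidone. The change in this signed difference from vehicle was 12.33 with clozapine and 15.09 with risperidone (edgeR adjusted p = 0.048 and 0.013), with 1 neuron vehicle library holding almost all of its counts.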

How the results depend on the processing

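Without the replicate block for pools, 6948 genes were higher and 6378 lower, and among the named genes the calls of Drd2, Gaa and Flt1 were lost without it (edgeR adjusted p = 0.12 for Flt1). DESeq2, RLE scaling and all 18 libraries in 1 fit kept the numbers of higher and lower genes within 1.5 times those reported (DESeq2 8426 and 6117, RLE 7726 and 6058, all libraries 8698 and 6204). Leaving out 1 pool gave 6101 to 7692 higher and 5586 to 6490 lower genes, and 1971 to 2840 and 886 to 1407 separating genes. Higher genes numbered 11439 with no low-count filter and 4699 at an adjusted p under 0.01. With glmTreat against an absolute log2 difference of 1 there were 3215 higher and 1643 lower. Higher genes numbered 4604 in batch 1 alone, 409 in vehicle alone, 4881 in clozapine alone and 2012 in risperidone alone, and lower genes 732 in vehicle alone and 3603 in risperidone alone. These fits hold fewer samples. Separating genes numbered 3848 and 3024 at a smallest difference of 0.5, and 283 and 24 at 2. Without the vehicle 1 and risperidone 1 pools together they numbered 4031 and 1764. At 10 times the receptor-gene density or more, 2438 genes were higher and 970 of them separating.

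For clozapine, interaction calls numbered 0 with no replicate block, 4 with DESeq2, 0 with RLE scaling, 110 with no low-count filter and 0 to 85 with 1 pool left out. For risperidone they numbered 0 with no replicate block, 5 with no filter and 0 to 1 with 1 pool left out. For batch they numbered 3 with no replicate block, 291 with DESeq2, 540 with no filter and 0 to 543 with 1 pool left out. The cause was not tested. A pool left out can leave a treatment with 1 pool, which is then assumed to vary like the others.

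Of the called genes named here, Flt1 alone changed its direction in a fit run, to -0.16 in batch 1 alone. The uncalled ones that did were Apoe (0.29) and Gja1 (0.31) in batch 1 alone, Fos (-0.49) and Sirpa (-0.071) in batch 2 alone, Serping1 (-0.16) in vehicle alone, Gja1 (0.14), Irak1 (0.042) and Vmn1r55 (0.77) in clozapine alone, and Fos (-0.38), Vmn1r55 (0.020) and ENSMUSG00002076052.1 (1.75) in risperidone alone. Irak1 also did so with DESeq2 (0.023), RLE scaling (0.023) and without the vehicle 1 pool (0.043, in a range of -0.14 to 0.043 with 1 pool left out). Without the vehicle 1 and risperidone 1 pools, Fos was at -0.30 and Vmn1r55 at 0.056. Genes near the filter, such as Cd3e and H2-Aa, are limited by depth.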

Other observations

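The most abundant separating genes added a view that the ranking by smallest pool difference left out. They were chosen by their level after values were seen. Of separating genes higher in microglia, 12 averaged over 1000 CPM in that fraction, and of those lower, 53 averaged over 1000 CPM in neurons. Cst3, the secreted protease inhibitor cystatin C, averaged 12335 ± 2759 CPM in microglia and 1711 ± 1079.9 CPM in neurons (SD, n = 6; log2 difference 3.04 ± 0.38, SE; edgeR adjusted p = 3.2e-05). The lysosomal protease Ctss averaged 2823 ± 707 against 176 ± 232 CPM, and the activation marker Cd83 2746 ± 857 against 149.9 ± 235 CPM. Plek, pleckstrin, a substrate of protein kinase C in blood cells, averaged 1250.2 ± 284 against 71.5 ± 78.1 CPM.

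Among the abundant genes lower in microglia, Bc1, a non-coding RNA of neuronal dendrites, averaged 859 ± 619 CPM in microglia and 11993 ± 9142 CPM in neurons (SD, n = 6; log2 difference -3.89 ± 0.44, SE; edgeR adjusted p = 1.6e-05). Map1a, a microtubule protein, averaged 559.7 ± 377 against 3362 ± 1237 CPM. The kinesin genes of this group covered all 3 heavy chains of kinesin-1, with Kif5b, which most cell types express, at 236 ± 38.3 against 1328 ± 685 CPM and a log2 difference of -2.37 ± 0.24 (SE; edgeR adjusted p = 9.4e-06).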
